A study of Mus musculus and Homo sapiens with 9 samples.

Results

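The 48 genes described here encode the machinery that licenses replication origins and copies DNA at the fork. They were taken from both count tables of the study by gene symbol, from a list chosen with earlier results of these data known. All 48 were found among the 64252 rows of the human table and, as the same symbols in mouse case, among the 43432 rows of the mouse table. RNA sequencing was done in 9 libraries. The human libraries came from J.gamma1, a T cell leukemia line derived from Jurkat that lacks the signalling enzyme PLCG1, and were 2 libraries labelled sh-NC (a control short hairpin RNA) and 2 labelled sh-IRF2BP2 (a hairpin against IRF2BP2, a transcriptional cofactor). Which hairpin was used was not given in the sources used here, and all 4 libraries represent a single cell line. The mouse libraries came from CD3+ T cells taken magnetically from spleen, with 2 from knockout mice (Irf2bp2 fl/fl carrying Vav-iCre+/-) and 3 from control mice. The labels call the control mice wild type, whereas the study describes them as Vav-iCre-/- mice with the same floxed alleles. Vav-iCre is active in the whole blood lineage, so Irf2bp2 was removed from other blood cells of the knockout mice as well as from T cells. The labels give no age for the sequenced mice, and the age that the study gives for mice of these genotypes stands with its flow cytometry. Nothing in the labels says that same-group libraries were separate cultures, so p-values measure only the spread between these libraries.

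Before S phase, the origin recognition complex recruits CDC6 and CDT1 to load the MCM2-7 helicase onto DNA, and geminin blocks CDT1 once S phase has begun. The kinase CDC7 with its partner DBF4 then helps to recruit CDC45 and the GINS complex, which turn the loaded MCM2-7 ring into the active CMG helicase. Polymerase alpha-primase, polymerases delta and epsilon, the PCNA clamp, the RFC clamp loader, FEN1, LIG1 and RPA carry out synthesis behind it, and many of these genes are known as targets of E2F transcription factors in cycling cells.

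Because many replication genes are known E2F targets, the promoter windows of the members were searched for 4 words that E2F factors bind, TTTGGCGC, TTTCCCGC, TTTCGCGC and TTTGCCGC, on both strands. The window ran from 250 bases before to 50 bases after the annotated start. In hg38, 22 of the 48 members (45.8%) held at least 1 of the words, against 873 of 20007 protein-coding genes (4.36%). In the RefSeq promoters of GRCm38, 16 of the 39 members with an entry (41%) held a word, against 548 of 16522 genes (3.32%). The words were found in both species in 15 members, and 9 of these held the same word in the same direction, or 11 in either direction. The windows of 30 bases around the shared word are shown for 4 members that passed the test of at least 1 experiment, with the word in capitals and each sequence read 5′ to 3′ on the strand of the gene. Human windows were read from hg38 and mouse windows from RefSeq's promoters.
MCM7, hg38 chr7:100101388-100101417, minus strand: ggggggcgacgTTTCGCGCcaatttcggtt
Mcm7, GRCm38 chr5:138171849-138171878, minus strand: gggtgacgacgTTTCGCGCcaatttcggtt
POLA1, hg38 chrX:24693770-24693799, plus strand: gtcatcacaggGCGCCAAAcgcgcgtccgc
Pola1, GRCm38 chrX:93632275-93632304, minus strand: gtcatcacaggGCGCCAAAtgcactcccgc
POLD3, hg38 chr11:74592578-74592607, plus strand: gagcaaagacgTTTCCCGCcggcgggagct
Pold3, GRCm38 chr7:100121467-100121496, minus strand: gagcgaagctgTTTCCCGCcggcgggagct
MCM6, hg38 chr2:135876515-135876544, minus strand: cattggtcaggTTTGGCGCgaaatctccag
Mcm6, GRCm38 chr1:128359734-128359763, minus strand: gattggacgggTTTGGCGCgaagtagctca
The human and mouse windows shared 28 of 30 bases at MCM7, 26 at POLA1, 27 at POLD3 and 21 at MCM6. A match is a description of letters in a window and was not tested as a binding site. Among the members that fell in J.gamma1 cells (described next), 4 of 8 held a word, against 18 of the other 40. Among the mouse members with an entry, 9 of the 15 that rose in knockout T cells held a word, against 7 of the other 24.

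Total counts were 26648204 to 31120236 in the J.gamma1 libraries and 16668577 to 37177523 in the mouse libraries, of which control replicate 3 was the shallowest. IRF2BP2 itself was at 204 and 199 CPM (read counts scaled to a common library size after TMM scaling) with sh-NC and at 79.0 and 93.8 CPM with sh-IRF2BP2. Mouse Irf2bp2 was at 112, 127 and 120 CPM in control T cells and had 0 counts in both knockout libraries. The tables were normalized separately, so levels are compared within a table only. All 48 members passed the filter on low counts in both tables.

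In J.gamma1 cells, 43 of the 48 members had a lower fitted level with sh-IRF2BP2, and 8 members fell significantly by edgeR's quasi-likelihood test at a Benjamini-Hochberg adjusted p under 0.05 over the 15819 genes tested. These were GINS1, PCNA, RFC4, MCM3, FEN1, POLD1, RPA3 and POLD3. Over all genes tested, 5.32% fell. Over all genes tested, 5.83% rose, but no member did by edgeR, none had an unadjusted p under 0.05 in that direction, and none rose by DESeq2. The median log2 fold change was -0.34 for the members and 0.01 for all genes tested. In 34 of the 48 members both sh-IRF2BP2 libraries lay below both sh-NC libraries, compared with 28.7% of all genes tested, and in 2 (ORC2 and GINS3) both lay above, compared with 29.6%. Summed over the 48 members, the 2 sh-NC libraries held 8310 and 8596 CPM and the 2 sh-IRF2BP2 libraries 6867 and 6355 CPM. The count of 8 depended on single libraries, as did the share of all genes that fell. Each such fit left 1 library in a group, and the members' median log2 fold change ran from -0.39 to -0.27. DESeq2 gave 15 members, with 8.19% of all genes lower by that tool.

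In mouse splenic CD3+ T cells most fitted signs were the opposite. Of the 48 members, 47 had a higher fitted level in the knockout, and 17 rose significantly by the same test, where 2.68% of the 15350 genes tested rose. The 17 were Orc1, Cdc6, Rrm2, Clspn, Mcm10, Gins1, Rrm1, Pole, Lig1, Pola1, Fen1, Mcm5, Wdhd1, Mcm7, Mcm3, Mcm2 and Mcm6. No member fell by edgeR or by DESeq2, and none had an unadjusted p under 0.05 in that direction. The median log2 fold change was 0.60 for the members and -0.02 for all genes tested. In 36 of the 48 members both knockout libraries lay above all 3 control libraries, compared with 18.2% of all genes tested. Summed over the members, the level was 1977, 2208 and 1923 CPM in the controls and 3175 and 3473 CPM in the knockout. The 17 calls depended on single libraries. None remained without control replicate 1 (adjusted p 0.0564 to 0.177), where 0.0397% of all genes tested rose, against 2.68%. Calls were also lost without either knockout library, among the members and over all genes, but that left 1 library in the group. Whichever library was left out, the log2 fold changes of the 17 stayed between 0.70 and 3.37. In these bulk samples, a higher share of replicating cells and more RNA per cell cannot be told apart.

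**Figure D1:**
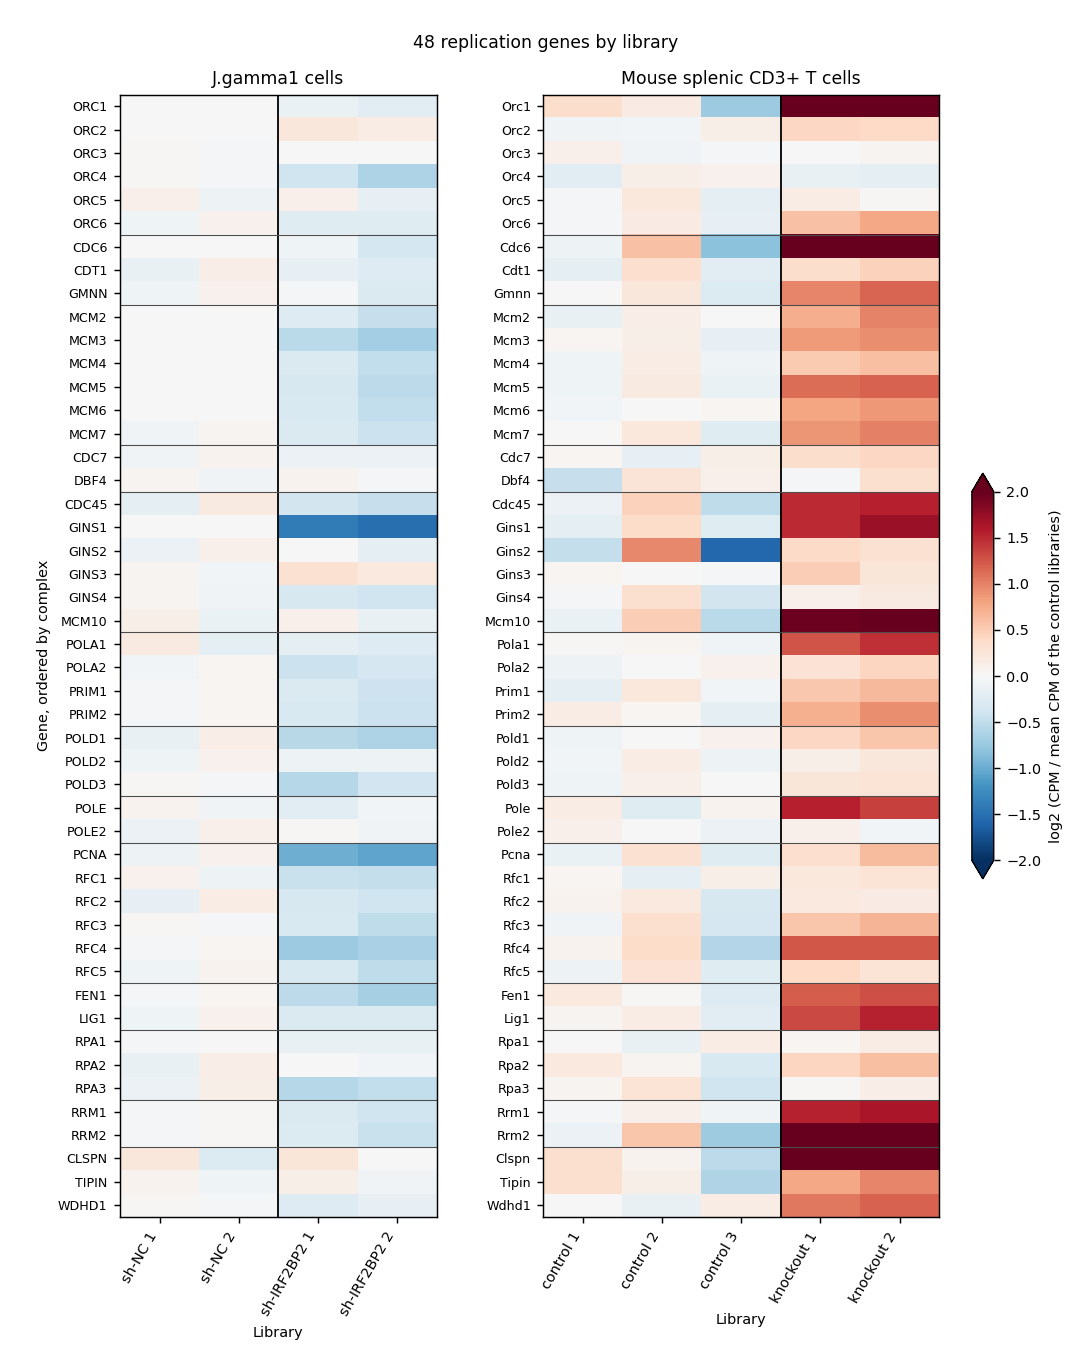
Level of each of the 48 members (rows, grouped by complex) in each library (columns), as log2 CPM relative to the mean of the control libraries of the same table. The sh-IRF2BP2 columns are mostly below the control mean (43 of 48 members fitted lower) and the knockout columns mostly above it (47 of 48 fitted higher).

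Marker levels of T cells and of some other cell types differed between the mouse groups. The 20 T cell markers summed to 10960, 12590 and 10650 CPM in the controls and 8424 and 8780 CPM in the knockout. Of them, 17 were lower in both knockout libraries than in every control, and Cd8b1 fell significantly. The 20 erythroid markers in the table, such as the erythroid transcription factor gene Klf1, summed to 2465, 1591 and 758 CPM in the controls and 5859 and 7969 CPM in the knockout, with all 20 above every control and 12 significantly higher. Plasma cell markers summed to 435 to 1183 CPM in the controls and 1173 to 1546 CPM in the knockout, with Prdm1 significantly higher of 8. B cell markers (39.5 to 289 against 43.8 to 142 CPM) and myeloid markers (38.9 to 405 against 90.2 to 146 CPM) overlapped between the groups, and no gene of these lists passed in edgeR or at an unadjusted p under 0.05. The part of these cells in the members' levels was not tested. Within the controls, the erythroid sum was lowest in replicate 3, where 33 of the 48 members were also lowest. The sum was highest in replicate 1, as were globin genes such as Hbb-bs (696, 348 and 168 CPM in replicates 1 to 3). Most other erythroid markers were highest in replicate 2, such as Klf1 (5.02, 11.8 and 3.82 CPM) and Slc4a1 (36.7, 54.6 and 14.1 CPM). In replicate 2, 30 of the 48 members were also highest. The T cell, B cell and myeloid sums were likewise lowest in replicate 3, the shallowest library, and highest in replicate 2. The plasma cell sum was highest in replicate 1 and lowest in replicate 2. The share of all genes lowest or highest in each control is not given here. In J.gamma1 cells, 4 of 20 T cell markers fell (CD3D, TRBC1, TRBC2 and IL7R) and 5 rose, where 5.32% of all genes tested fell and 5.83% rose.

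The origin recognition complex, which marks origins, differed between the experiments in 2 of its 6 subunits (tested further on). ORC1, its largest and most cell cycle-dependent subunit, was at 63.0 and 62.1 CPM with sh-NC and 56.8 and 53.4 CPM with sh-IRF2BP2. Mouse Orc1 was at 1.86, 1.63 and 0.88 CPM in the controls, with 69, 59 and 14 counts, and at 11.8 and 15.0 CPM in the knockout. The groups did not overlap in either experiment. The log2 fold change was -0.18 ± 0.12 (SE; adjusted p = 0.349) in J.gamma1 cells and 3.17 ± 0.36 (adjusted p = 0.0107), an 8.99-fold rise, in knockout T cells. Exons of Gm12743 on the other strand cover 10.8% of those of mouse Orc1, and whether the counting used strand was not given in the sources used here. ORC6 was at 64.8 and 72.6 CPM against 58.3 and 58.0 CPM in J.gamma1 cells, and Orc6 was at 16.0, 18.2 and 14.5 CPM against 24.4 and 27.7 CPM in mouse T cells. Neither change passed its own test, but the difference between the experiments did. ORC2 to ORC5 had log2 fold changes of -0.50 to 0.19 in J.gamma1 cells and -0.17 to 0.41 in mouse T cells. ORC4 lay just outside the threshold in J.gamma1 cells at adjusted p = 0.0501 and was the sole member with a lower fitted level in both experiments. Nif3l1 on the other strand covers 29.8% of the exons of mouse Orc2.

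Of the loading factors, CDC6 had the widest difference between the experiments. CDC6, an ATPase that acts with the origin recognition complex, was at 152 and 153 CPM with sh-NC and 143 and 119.8 CPM with sh-IRF2BP2. Mouse Cdc6 was at 7.07, 11.4 and 4.32 CPM in the controls and 44.5 and 51.5 CPM in the knockout, a 6.25-fold rise (log2 2.64 ± 0.36, adjusted p = 0.0182), against a log2 fold change of -0.22 ± 0.13 (adjusted p = 0.325) in J.gamma1 cells. CDT1, its partner in helicase loading, was at 139 and 170.1 CPM against 138 and 129 CPM in J.gamma1 cells. Mouse Cdt1 was at 41.4, 59.6 and 40.4 CPM against 59.9 and 64.8 CPM. Control replicate 2 reached almost the level of knockout replicate 1, and the change did not pass (log2 0.40 ± 0.20, adjusted p = 0.387). GMNN, which encodes the CDT1 inhibitor geminin, was at 75.6 and 84.8 CPM against 79.0 and 65.6 CPM in J.gamma1 cells, where the groups overlapped. Mouse Gmnn was at 11.7, 13.6 and 9.57 CPM against 22.8 and 25.9 CPM, with no overlap and an adjusted p of 0.0516.

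All 6 genes of the MCM2-7 helicase lay lower in both sh-IRF2BP2 libraries and higher in both knockout libraries. In J.gamma1 cells MCM3 alone passed, while MCM2, MCM4, MCM5, MCM6 and MCM7 had adjusted p-values of 0.0721 to 0.125. In mouse T cells all but Mcm4 (adjusted p = 0.0874) passed.
In J.gamma1 cells MCM2 was at 427 and 432 CPM with the control hairpin and 360 and 312 CPM with the IRF2BP2 hairpin, and Mcm2 at 78.9, 96.5 and 88.3 CPM in controls and 145 and 175 CPM in the knockout. MCM3 was at 456 and 448 CPM against 310.4 and 284 CPM, and Mcm3 at 75.3, 79.0 and 65.2 CPM against 132 and 139 CPM. MCM4 was at 614 and 602 CPM against 496 and 434 CPM, and Mcm4 at 104, 123 and 104 CPM against 158 and 167 CPM. These first 3 subunits of the ring kept the same order of groups, with no overlap. MCM5 was at 276 and 279 CPM against 221 and 193 CPM, and Mcm5 at 65.4, 78.5 and 63.2 CPM against 149.7 and 157 CPM. MCM6 was at 358 and 365 CPM against 293 and 258 CPM, and Mcm6 at 112, 117 and 119.6 CPM against 201 and 210.3 CPM. MCM7 was at 742 and 810.5 CPM against 633 and 574 CPM, and Mcm7 at 93.1, 108 and 78.6 CPM against 171 and 188 CPM. The 6 subunits had log2 fold changes of -0.61 to -0.35 in J.gamma1 cells and 0.56 to 1.15 in mouse T cells. MCM3 had a log2 fold change of -0.61 ± 0.12 (adjusted p = 0.0211) in J.gamma1 cells and 0.89 ± 0.13 (adjusted p = 0.0211) in mouse T cells. A lncRNA on the other strand covers 23.6% of the exons of human MCM2.

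The genes of the kinase that fires licensed origins did not pass the test. CDC7 had log2 fold changes of -0.11 ± 0.11 in J.gamma1 cells and 0.38 ± 0.15 in mouse T cells, and its activator DBF4 of 0.02 ± 0.12 and 0.15 ± 0.24. Their adjusted p-values were 0.267 to 0.923 over both experiments.

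Genes that turn the loaded helicase into the CMG complex held the widest fall in J.gamma1 cells. GINS1, a GINS subunit, was at 108 and 110 CPM with sh-NC and 41.2 and 38.4 CPM with sh-IRF2BP2, a 2.74-fold fall (log2 -1.45 ± 0.12, adjusted p = 0.00109). Mouse Gins1 was at 2.78, 4.12 and 2.69 CPM in the controls and 8.98 and 10.6 CPM in the knockout, a 3.04-fold rise (log2 1.60 ± 0.30, adjusted p = 0.0443). The other GINS genes did not pass, with log2 fold changes for GINS2, GINS3 and GINS4 of -0.10, 0.25 and -0.36 in J.gamma1 cells and 0.33, 0.37 and 0.14 in mouse T cells. Mouse Gins2 ranged from 3.07 to 17.7 CPM among the controls, and Gse1 on the other strand covers 67.3% of its exons. A lncRNA covers 21% of the exons of human GINS4. CDC45 was at 89.1 and 116 CPM against 79.0 and 74.3 CPM in J.gamma1 cells, and Cdc45 was at 6.78, 10.1 and 5.19 CPM against 20.6 and 21.6 CPM in mouse T cells. The groups did not overlap, with adjusted p-values of 0.112 and 0.0517. MCM10, which helps to activate the helicase, was at 147 and 124 CPM against 146 and 123 CPM in J.gamma1 cells. Mouse Mcm10 was at 5.40, 8.35 and 4.07 CPM against 23.1 and 27.0 CPM. The J.gamma1 groups overlapped, whereas the mouse gene rose 4.18-fold (log2 2.06 ± 0.31, adjusted p = 0.0239).

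**Figure D2:**
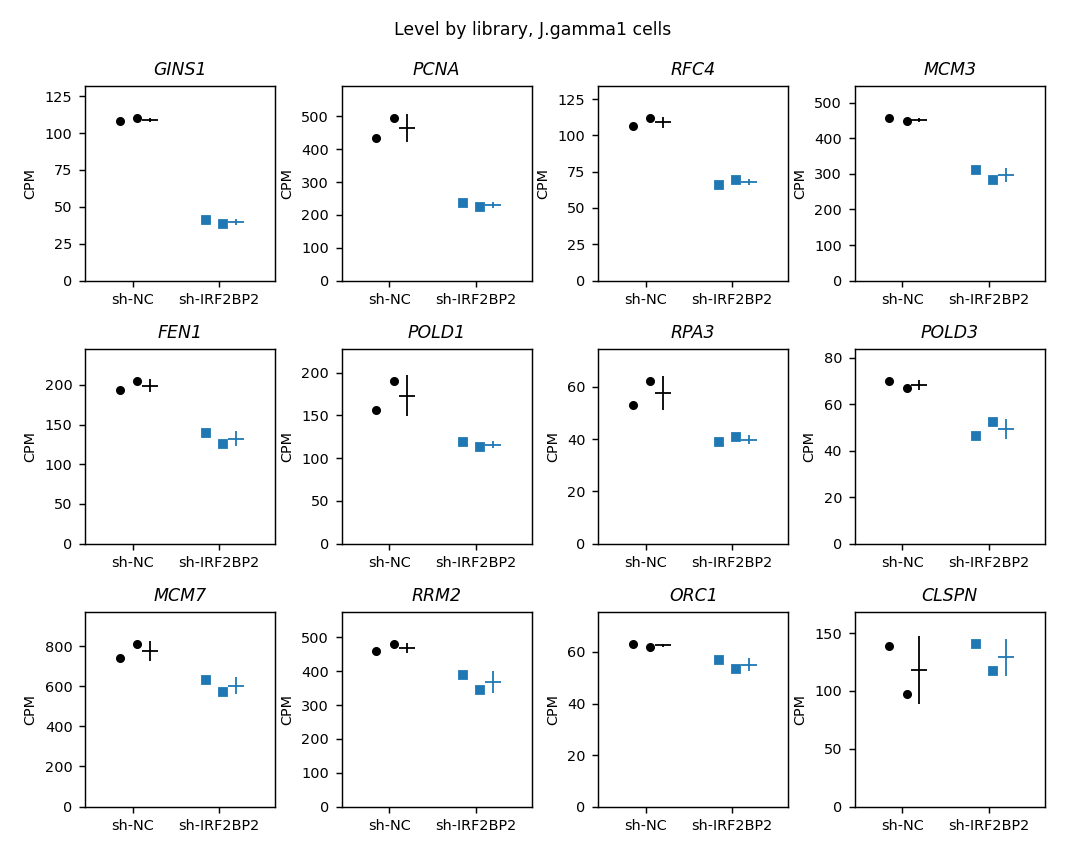
CPM of 12 members in each J.gamma1 library (sh-NC circles, sh-IRF2BP2 squares), with the group mean and SD (n = 2) beside the points and axes from 0. GINS1 and PCNA have the widest gaps, while the groups of CLSPN overlap.

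**Figure D3:**
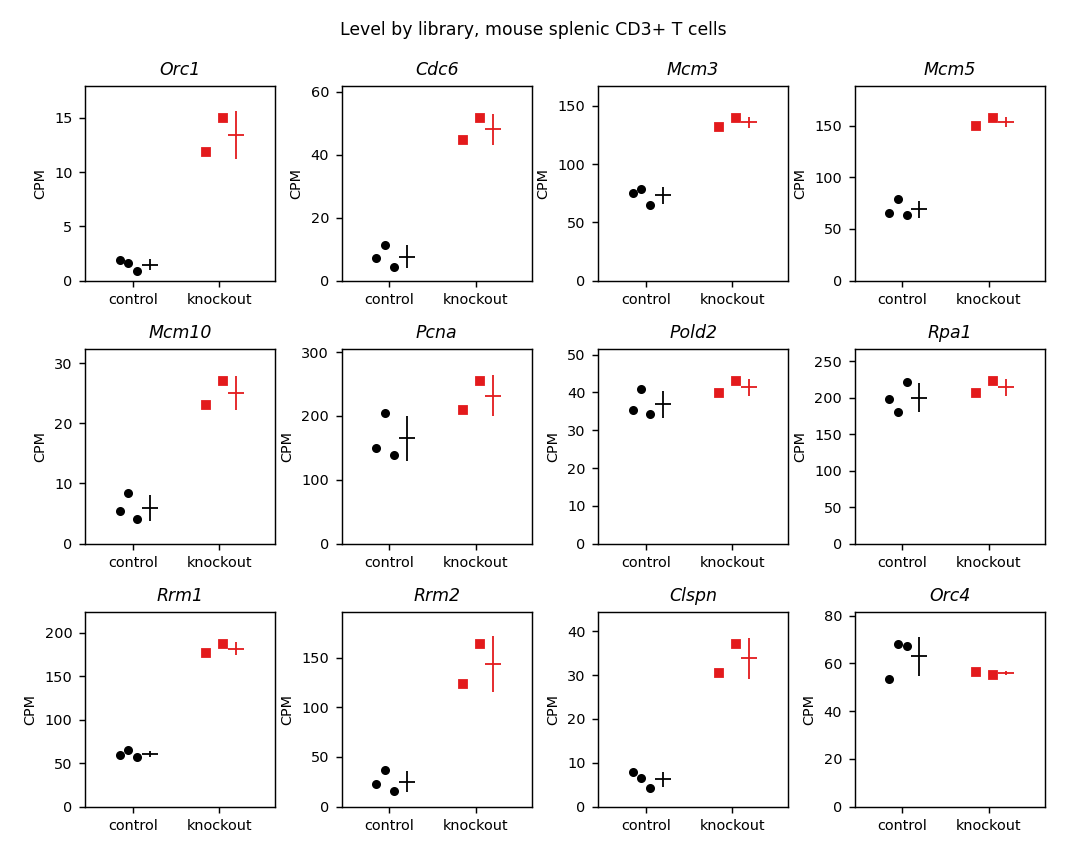
CPM of 12 members in each mouse library (control circles, knockout squares), with the group mean and SD (n = 3 and n = 2) beside the points and axes from 0. Orc1 is at 0.88 to 1.86 CPM in the controls and 11.8 to 15.0 CPM in the knockout.

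Polymerase alpha-primase, which lays the RNA-DNA primers, had 4 genes that were fitted lower in J.gamma1 cells and higher in mouse T cells. POLA1, the catalytic subunit, was at 92.0 and 71.0 CPM against 71.4 and 68.3 CPM in J.gamma1 cells. Pola1 was at 17.7, 18.0 and 16.5 CPM against 41.5 and 47.9 CPM in mouse T cells and rose 2.57-fold (log2 1.36 ± 0.14, adjusted p = 0.01). The J.gamma1 groups of POLA1 overlapped, and the mouse groups did not. POLA2 was at 81.6 and 87.0 CPM against 62.5 and 67.1 CPM, and Pola2 at 38.1, 40.8 and 43.4 CPM against 50.05 and 54.8 CPM. PRIM1, the primase catalytic subunit, was at 67.6 and 71.9 CPM against 57.2 and 52.2 CPM, and Prim1 at 20.1, 26.2 and 22.0 CPM against 33.2 and 35.6 CPM. PRIM2 was at 74.6 and 78.3 CPM against 61.6 and 56.8 CPM, and Prim2 at 15.0, 13.9 and 11.8 CPM against 22.3 and 25.9 CPM. None of these 3 genes overlapped between groups or passed in either experiment, with adjusted p-values of 0.0749 to 0.101 in J.gamma1 cells and 0.0773 to 0.232 in mouse T cells. Other annotated genes on the same strand cover 16.8% of the exons of human POLA2 and 10.9% of those of PRIM1.

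Of the leading- and lagging-strand polymerases, genes of delta passed in J.gamma1 cells and a gene of epsilon in mouse T cells. POLD1, the catalytic subunit of polymerase delta, was at 156 and 190.1 CPM with sh-NC and 118 and 113 CPM with sh-IRF2BP2, and fell (log2 -0.58 ± 0.14, adjusted p = 0.0336). Pold1 was at 56.0, 58.9 and 63.1 CPM against 79.2 and 87.1 CPM and did not pass (adjusted p = 0.104). POLD3, an accessory subunit, was at 69.8 and 66.8 CPM against 46.2 and 52.5 CPM (log2 -0.47 ± 0.12, adjusted p = 0.0488), and Pold3 at 44.1, 50.3 and 46.7 CPM against 55.6 and 56.8 CPM (adjusted p = 0.379). POLE, the catalytic subunit of polymerase epsilon, was at 174 and 158 CPM against 142 and 160 CPM in J.gamma1 cells, where the groups overlapped (adjusted p = 0.513). Pole was at 16.3, 12.4 and 15.4 CPM against 43.2 and 37.8 CPM in mouse T cells and rose 2.75-fold (log2 1.46 ± 0.18, adjusted p = 0.0127). POLD2 and POLE2 had log2 fold changes within 0.17 of 0 in both experiments.

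The PCNA clamp and RFC4 had the next widest falls in J.gamma1 cells after GINS1. PCNA, which tethers polymerases to DNA, was at 435 and 494 CPM with sh-NC and 236 and 223 CPM with sh-IRF2BP2, a 2.03-fold fall (log2 -1.02 ± 0.13, adjusted p = 0.00383). Mouse Pcna was at 150.1, 204 and 139 CPM against 209 and 254 CPM. Control replicate 2 nearly reached knockout replicate 1, and the change did not pass (log2 0.49 ± 0.20, adjusted p = 0.289). RFC4, a clamp loader subunit, was at 106 and 112 CPM against 66.2 and 69.5 CPM (log2 -0.68 ± 0.11, adjusted p = 0.0104), and Rfc4 at 12.6, 15.3 and 7.95 CPM against 28.2 and 28.3 CPM (log2 1.23 ± 0.27, adjusted p = 0.0759). Eif4a2 on the other strand covers 12.7% of the exons of mouse Rfc4. RFC1, the large subunit, was at 222 and 195 CPM against 153 and 150 CPM (adjusted p = 0.0534), and Rfc1 at 75.8, 65.6 and 80.4 CPM against 85.8 and 89.8 CPM. RFC3 was at 123 and 119 CPM against 97.8 and 84.6 CPM, and Rfc3 at 10.6, 13.9 and 8.82 CPM against 16.3 and 17.7 CPM. RFC1 and RFC3 did not overlap between groups in either experiment. RFC2 and RFC5 had log2 fold changes of -0.35 and -0.40 in J.gamma1 cells and 0.17 and 0.34 in mouse T cells, none past the test, with Lat2 and Wsb2 on the other strand over 15.1% and 10.7% of the mouse exons.

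Both genes for joining Okazaki fragments rose in the knockout. FEN1, the flap endonuclease, was at 193 and 205 CPM with sh-NC and 139 and 126 CPM with sh-IRF2BP2, and fell (log2 -0.59 ± 0.12, adjusted p = 0.0219). Fen1 was at 29.2, 26.1 and 21.5 CPM against 59.5 and 62.9 CPM and rose 2.38-fold (log2 1.25 ± 0.16, adjusted p = 0.0147), although the antisense gene Gm10143 covers 78.8% of its exons, so their reads cannot be told apart where strand was not used. LIG1, the ligase that seals the nicks, was at 170 and 192 CPM against 148 and 147 CPM (adjusted p = 0.169), and Lig1 at 33.1, 35.6 and 27.3 CPM against 80.3 and 93.0 CPM, a 2.70-fold rise (log2 1.43 ± 0.16, adjusted p = 0.01). Of the RPA genes, whose products coat single-stranded DNA, RPA3 was at 52.9 and 62.1 CPM against 38.7 and 40.9 CPM and fell (log2 -0.53 ± 0.13, adjusted p = 0.0415). Rpa3 was at 18.2, 21.2 and 13.3 CPM against 17.8 and 19.3 CPM, within the range of the controls. RPA1 and RPA2 did not pass in either experiment, at log2 fold changes of -0.15 and -0.04 in J.gamma1 cells and 0.10 and 0.52 in mouse T cells.

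Ribonucleotide reductase, which makes deoxyribonucleotides, rose through both members in the knockout. RRM1, the large subunit, was at 416 and 434 CPM with sh-NC and 348 and 324 CPM with sh-IRF2BP2 (adjusted p = 0.119). Rrm1 was at 59.4, 64.6 and 57.3 CPM in the controls and 176 and 187 CPM in the knockout, a rise with the smallest adjusted p of the mouse members (log2 1.59 ± 0.12, adjusted p = 0.00542). RRM2, the S phase-dependent small subunit, was at 459 and 480 CPM against 390.1 and 345 CPM (adjusted p = 0.121), and Rrm2 at 23.2, 36.9 and 15.4 CPM against 124 and 164 CPM, a 5.68-fold rise (log2 2.51 ± 0.34, adjusted p = 0.0177). CLSPN, which encodes the checkpoint adaptor claspin, was at 139 and 97.4 CPM against 140 and 118 CPM in J.gamma1 cells, where the groups overlapped. Clspn was at 7.77, 6.56 and 4.32 CPM against 30.6 and 37.1 CPM and rose 5.39-fold (log2 2.43 ± 0.27, adjusted p = 0.01). WDHD1, which links the helicase to polymerase alpha, was at 124 and 120.3 CPM against 102 and 109 CPM (adjusted p = 0.278), and Wdhd1 at 25.5, 23.2 and 28.3 CPM against 53.3 and 57.9 CPM, a 2.17-fold rise (log2 1.12 ± 0.14, adjusted p = 0.0147). TIPIN had log2 fold changes of 0.03 in J.gamma1 cells and 0.87 in mouse T cells, neither past the test, and the pseudogene RPL9P25 covers 21.1% of the human exons.

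The difference between the experiments was then tested itself, as the log2 fold change in knockout T cells minus that in J.gamma1 knockdown, in a single edgeR fit of all 9 libraries over 9898 genes paired by symbol. That fit used 1 spread per gene for both experiments, although the coefficient of variation was 0.165 in J.gamma1 cells and 0.271 in mouse T cells. For ORC1 the SE of the difference was 0.329, below the 0.36 of its mouse change alone. Intervals and adjusted p-values of the difference may therefore be too small where the mouse spread was wider. The comparison crosses species, leukemic and normal cells, and hairpin and deletion. It also crosses a cell line and spleen samples in which markers of other cells differed between the groups. These cannot be told apart. All 48 members had a difference above 0, with a median of 0.98 (-0.03 over all paired genes), and 30 passed above 0, against 7.1% of all paired genes. None passed below 0 by edgeR or limma-trend, nor had an unadjusted p under 0.05 there, against 3.84% of all paired genes below 0. ORC1 had the widest difference (3.31, 95% interval 2.57 to 4.05, adjusted p = 0.000823), followed by GINS1 (3.04, 2.43 to 3.66, adjusted p = 0.000558), RRM2 (2.86, 1.89 to 3.82, adjusted p = 0.00387) and CDC6 (2.84, 1.90 to 3.79, adjusted p = 0.00366).

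By complex, the difference passed for all 6 genes of MCM2-7 (0.94 to 1.57), all 4 of polymerase alpha-primase (0.74 to 1.58), both ribonucleotide reductase genes (1.93 and 2.86) and both Okazaki fragment genes (1.72 and 1.84). It passed for 4 of 6 clamp and clamp loader genes (PCNA, RFC1, RFC3 and RFC4), 3 of 6 CMG assembly genes (CDC45, GINS1 and MCM10), 2 of 3 loading genes (CDC6 and GMNN), 2 of 3 polymerase delta genes (POLD1 and POLD3), 2 of 3 fork protection genes (CLSPN and WDHD1), 1 of 2 polymerase epsilon genes (POLE) and 2 of 6 origin recognition genes (ORC1 and ORC6). It did not pass for the CDC7 and DBF4 pair (0.50 and 0.12) or for the 3 RPA genes (0.25 to 0.60), by edgeR or by limma-trend, and CDC7 and RPA2 had an unadjusted p under 0.05. In this fit, whose intervals may be too small, the 95% interval was -0.32 to 0.39 for ORC3 and -0.45 to 0.55 for POLE2. For GINS2 it ran from -1.24 to 2.05.

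In fitted sign, 42 members were lower in the knockdown and higher in the knockout, ORC2, DBF4, GINS3, CLSPN and TIPIN were higher in both, and ORC4 was lower in both. MCM3, GINS1 and FEN1 passed in both experiments, 5 members passed in J.gamma1 cells alone and 14 in mouse T cells alone. Of the 8 members that fell in J.gamma1 cells, all but RPA3 passed the test of the difference, as did all 17 that rose in the knockout. That test uses the same libraries as the tests within each experiment, so this overlap is not separate evidence. A further 9 members passed only the test of the difference (ORC6, GMNN, MCM4, CDC45, POLA2, PRIM1, PRIM2, RFC1 and RFC3).

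**Figure D4:**
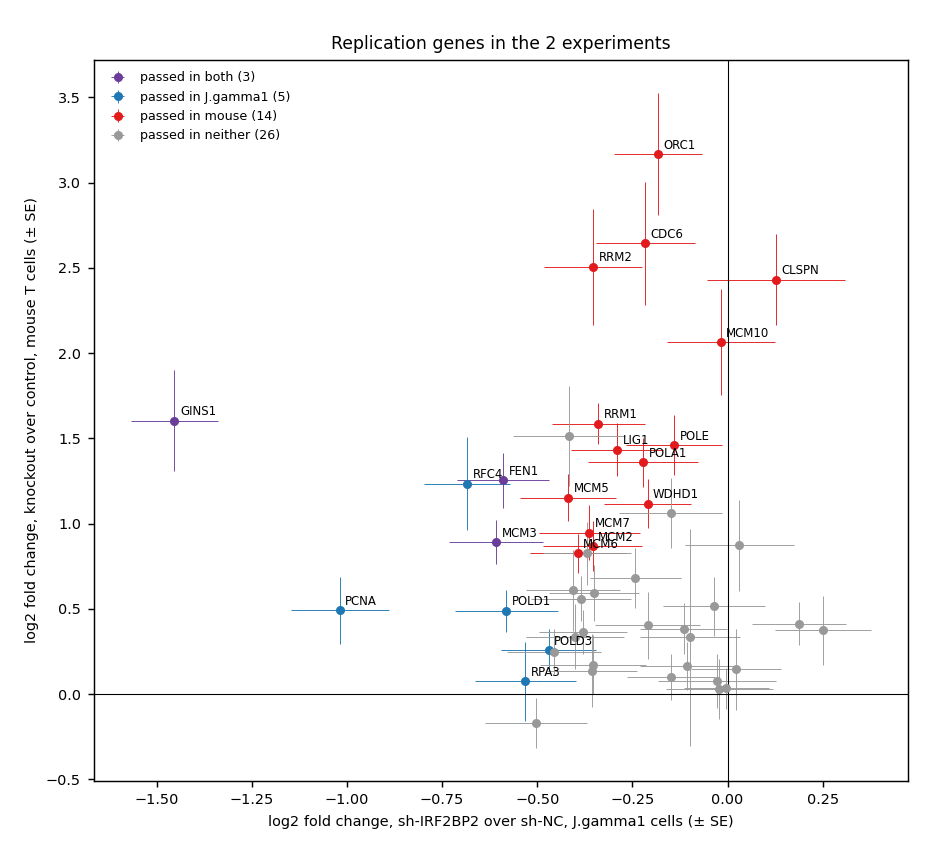
Log2 fold change of each member in J.gamma1 knockdown (x axis) against that in knockout T cells (y axis), with standard errors as bars. Of the 48 points, 42 lie in the upper left corner of the plot, lower in the knockdown and higher in the knockout.

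**Figure D5:**
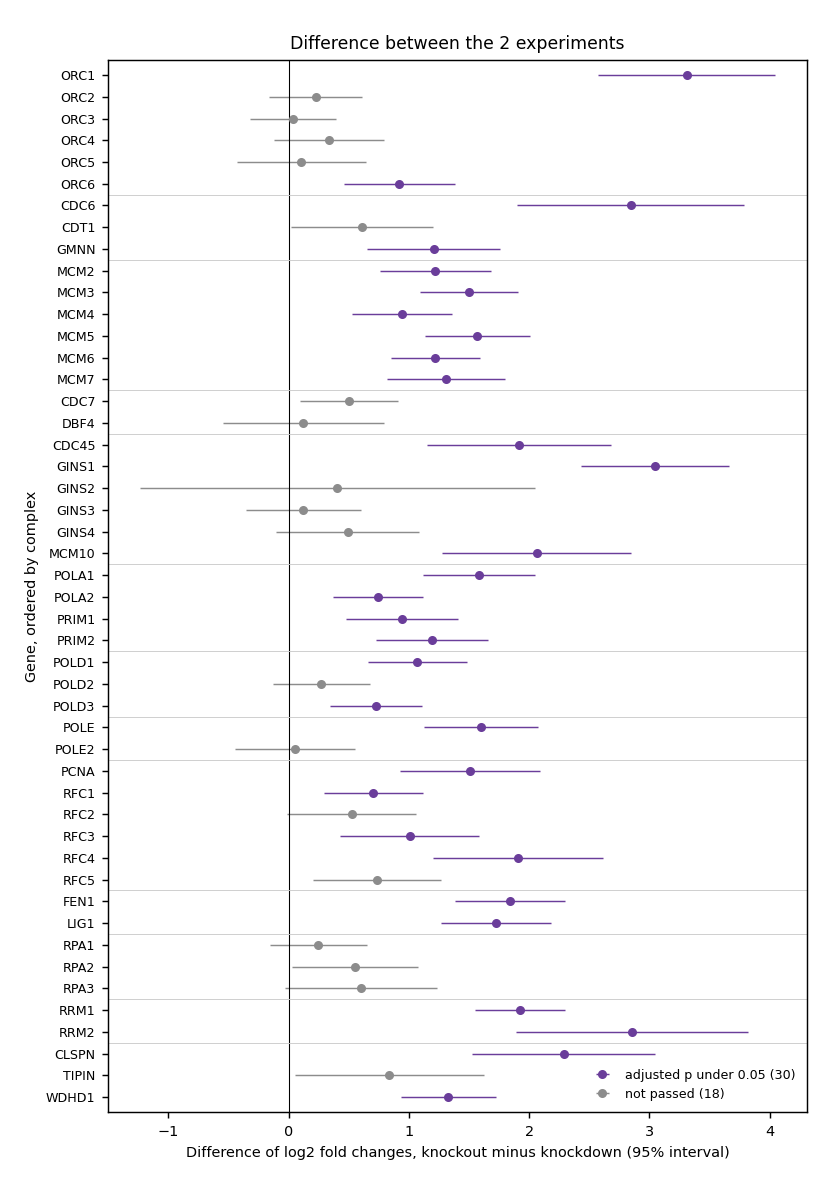
Difference of log2 fold changes, knockout minus knockdown, for each member by complex, with its 95% interval. All 48 points lie above 0, and the 6 MCM2-7 genes lie between 0.94 and 1.57.

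Other genes of the same processes were counted in the same fits, where 5.32% of all genes tested fell in J.gamma1 cells and 2.68% rose in knockout T cells. Counts of 1 or 2 genes in a list are too small to set against these shares. Of 30 other replication genes, 5 fell in J.gamma1 cells (RNASEH2B, DSCC1, CHAF1B, ASF1B and SSRP1; median of the list -0.11) and 7 rose in knockout T cells (Dna2, Recql4, Ticrr, Atad5, Chaf1a, Dtl and Uhrf1; median 0.51). DSCC1, part of an alternative PCNA loader, had a log2 fold change of -1.41 (adjusted p = 0.00159), close in size to GINS1. Of 14 nucleotide supply genes, UMPS and ATIC fell in J.gamma1 cells (median -0.23) and Tk1, which encodes thymidine kinase, rose in knockout T cells (median 0.29). Of 20 mitotic genes, CDK1 and NDC80 fell in J.gamma1 cells (median -0.18) and 9 rose in knockout T cells, among them the proliferation marker Mki67 (log2 2.78, adjusted p = 0.00717), with a median of 1.90. The mitotic genes summed to 305, 395 and 187 CPM in the controls and 1205 and 1313 CPM in the knockout, 4.26-fold in the mean, where the 48 members rose 1.63-fold in the sum. Whether the 2 lists differ was not tested.

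Per kilobase of exon, PCNA was the most abundant member in both tables, at 331 CPM per kilobase in sh-NC cells and 163 in sh-IRF2BP2 cells, and at 68.6 in control and 96.4 in knockout T cells. In J.gamma1 cells with sh-NC it was followed by MCM7 (156), MCM3 (124) and RRM1 (100.5). In control T cells it was followed by Rpa1 (35.9), Mcm4 (30.7) and Mcm6 (24.8). Length was that of all annotated exons together, 9852 bases for human MCM4 and 3589 for mouse Mcm4, so this order depends on the annotation. Without length, PCNA (mean 465 CPM) lay below MCM7 (776), MCM4 (608) and RRM2 (470) in sh-NC cells. Pcna (165 CPM) lay below Rpa1 (200) in control T cells.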

How the data were processed

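RNA sequencing of 4 J.gamma1 and 5 mouse libraries was grouped by the labels. The authors aligned reads with HISAT2 2.2.0 to hg38 and mm10 and used StringTie, per the labels and methods, and the deposited tables give raw counts as whole numbers for each Ensembl gene and library. How coverage became counts, and whether strand was used, is not given in the sources used here. Rows without an annotated identifier were left out. After filterByExpr and TMM scaling, the quasi-likelihood test of edgeR 4.0.16 in R 4.3.3 (glmQLFit, then glmQLFTest) was used at an adjusted p under 0.05 with no fold threshold. The biological coefficient of variation was 0.165 in J.gamma1 cells and 0.271 in mouse T cells, on 2 and 3 residual degrees of freedom. CPM uses TMM-scaled library sizes. Same-group libraries differed by more than sampling noise, and each was counted as 1 replicate. Such a difference does not show that they were separate cultures or separate mice.

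The members, lists, windows and tests were chosen with earlier results of these data known. Values in every library are given for ORC1, CDC6, CDT1, GMNN, MCM2 to MCM7, CDC45, PCNA, RRM1, RRM2, CLSPN and each member past the threshold in either experiment or in the difference. The alternatives were DESeq2 1.42.0, limma-trend (limma 3.58.1), scaling by upper quartiles or RLE, genes with at least 1 count, counts divided by 2, all rows, fold thresholds, a replicate block and each library left out.

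In simulated counts with planted changes, 4-fold changes were recovered in 192 of 200 genes among 15518 in the J.gamma1 design (9 false calls), in 174 of 200 among 15044 in the mouse design (10 false calls) and in 195 of 248 among 9773 for the difference (2 false calls). Recovery of 2-fold changes was far lower, at 75 of 200 among 15533, 3 of 200 among 15057 and 1 of 233 among 9789, so 2-fold changes can be missed. In the simulation every gene had the common dispersion, so its recovery need not hold for the members. In the data POLD3 passed at a 1.385-fold fall in J.gamma1 cells and Mcm6 at a 1.77-fold rise in mouse T cells, while Rfc4 did not pass at a 2.35-fold rise. An item among the list genes is not reported here.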

Additional observations from a re-analysis of the deposited data

Results flagged for a closer look

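The log2 fold changes of 30 members differed between knockout T cells and J.gamma1 knockdown by the test of the difference itself (edgeR, adjusted p under 0.05 over 9898 paired genes). The difference, knockout minus knockdown, was over 2 for ORC1 (3.31), GINS1 (3.04), RRM2 (2.86), CDC6 (2.84), CLSPN (2.29) and MCM10 (2.06). It lay between 1.5 and 2 for RRM1 (1.93), CDC45 (1.91), RFC4 (1.91), FEN1 (1.84), LIG1 (1.72), POLE (1.60), POLA1 (1.58), MCM5 (1.57) and PCNA (1.51). It lay between 1 and 1.5 for MCM3 (1.498), WDHD1 (1.33), MCM7 (1.31), MCM2 (1.22), MCM6 (1.22), GMNN (1.21), PRIM2 (1.19), POLD1 (1.07) and RFC3 (1.01). It was under 1 for PRIM1 (0.94), MCM4 (0.94), ORC6 (0.92), POLA2 (0.74), POLD3 (0.73) and RFC1 (0.71). Species, cell state, other cells in the mouse samples and the way IRF2BP2 was reduced cannot be told apart in this comparison. Its fit used 1 spread per gene for both experiments. Groups of 2 and 3 libraries were too small for a check of single outlying samples.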

How the results depend on the processing

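The count of 8 members that fell in J.gamma1 cells was 4 when genes with at least 1 count anywhere were kept (1.46% of all genes lower, against 5.32%). It was 15 with DESeq2 (8.19%), 24 with the replicate number as a block (10.5%) and 2 at a log2 fold change of at least 1. It also depended on single libraries, as did the share of all genes, and each such fit left 1 library in a group. The median of the 48 members, -0.34, was -0.40 with upper-quartile scaling and -0.39 to -0.27 without a library. The count of 17 that rose in mouse T cells ran from 0 to 22 without a control library, where 0.0397% to 3.93% of all genes rose, against 2.68%. It was 0 without control replicate 1, where 6 genes rose over all genes, against 412. Calls were also lost without either knockout library, which left 1 in that group. The median ran from 0.52 to 0.80 without a library. With every library kept, the count ran from 13 to 25 over the alternatives, and DESeq2 had 5.95% of all genes higher. The count of 30 for the difference was 30 under limma-trend, RLE scaling and the block. Of these 30, 27 remained without control replicate 1 and all 30 without control replicate 2 or 3. Calls were lost when a library of any other group was left out, which left 1 there. Among members named singly, the sign changed when a library was left out for MCM10 (log2 fold change -0.17 to 0.10) and CLSPN (-0.11 to 0.40) in J.gamma1 cells and for mouse Rpa3 (-0.095 to 0.24), and for Rpa3 under the replicate block (-0.085). None of these had passed, and the cause was not tested.

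Replicate numbers did not pair the samples by any label. Deviations of same-numbered libraries correlated at 0.225 in J.gamma1 cells and at 0.151 and -0.161 in mouse T cells. With 2 libraries per group, both J.gamma1 pairs must give the same value, so this is a single number. In J.gamma1 cells the block raised the share of all genes lower from 5.32% to 10.5% and the share higher from 5.83% to 11.9%. Whether the numbers pair the J.gamma1 libraries was not settled. With the block, 16 of the 17 mouse calls remained.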
